A study of Physcomitrium patens with 6 samples.

Results

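The change in messenger RNA over the first 30 minutes of abscisic acid (ABA) was followed in protonema of the moss Physcomitrium patens, by comparing the 30 minute group (2 libraries) with the 0 minute group (2 libraries). These 4 libraries were chosen by their labels alone, from 6 libraries in the series; the other 2 were collected at 60 minutes. Protonema is the branching, filamentous juvenile tissue of mosses. All groups were protonema grown on plates, sonicated, and kept for 3 days in shaken liquid medium before the addition; the 30 minute group received ABA, and cultures that served as controls received the same volume of methanol, its carrier. The recorded age is 10 days, and the labels give no strain or genotype. The final ABA concentration is stated as 10 µM in one label and 10 mM in another, and the sources used here do not say how long before collection the 0 minute cultures were given methanol. ABA and 30 minutes of further shaking after an addition therefore cannot be told apart.

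ABA is the hormone through which land plants respond to drought, salt and cold. In the textbook pathway, ABA binds soluble receptors, which then block a group of protein phosphatases; protein kinases of the SnRK2 family are released from that block and phosphorylate transcription factors, many of them bZIP proteins, that switch on target genes. In mosses the hormone is known for making protonema tolerant to drying and freezing, and its best known target genes encode late embryogenesis abundant and related protective proteins. The count tables name genes by ID only, and none of the 32926 IDs was found in the RefSeq gene table used here (0 matches). No gene name, function, sequence or position is therefore given, and neither the pathway's own genes nor protonema marker genes could be looked up.

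Gene counts summed to 17580410 and 12450250 in the 30 minute libraries and to 17822775 and 16407676 in the 0 minute libraries. Libraries of the same time correlated with r = 0.993 at 30 minutes and r = 0.993 at 0 minutes across genes on the log2 CPM scale, whereas libraries of different times correlated with r between 0.857 and 0.861. These correlations are across genes, which are not independent replicates. Levels are given as CPM, read counts relative to library size after TMM, a scaling between libraries that assumes most genes do not change. Without gene lengths, CPM orders genes by the reads they drew and not by numbers of transcripts, so "most read" is written in place of "most abundant". In bulk tissue, fewer cells making a transcript and less transcript per cell cannot be told apart.

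Some IDs carried nearly the same counts as a neighbour, and this touches several results below. Among the 13955 IDs with at least 600 counts over the 6 libraries, 690 (4.94%) fell into 340 sets of neighbouring IDs whose counts differed by no more than 3% or 3 counts in every library. Of these sets, 331 were pairs and the largest held 4 IDs. In 112 of the 360 pairs of IDs the counts were identical in all 6 libraries. The rows of the count tables for ambiguous and for not uniquely aligned reads were 0, so the tables do not show whether the same reads were counted for each ID. IDs of 1 set are treated below as 1 observation whose level is uncertain. Counting each set once left 3651 genes higher and 3132 lower.

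The question was which transcripts had moved by 30 minutes after the addition. Comparing 30 with 0 minutes does not show when within that time a change began. At 30 minutes, 3715 genes were called higher and 3181 lower among 18949 tested (edgeR's quasi-likelihood test, Benjamini-Hochberg adjusted p below 0.05). That is 36.4% of the tested genes in either direction, 19.6% higher and 16.8% lower. The libraries of both times did not overlap in any called gene, which was also the case for 74.2% of all tested genes. Most changes were modest: 52.5% of the rises and 65.4% of the falls were below 2-fold, leaving 1765 genes (9.31%) at least 2-fold higher and 1102 (5.82%) at least 2-fold lower. Large changes ran mostly upward. At least 8-fold rises were called for 555 genes (2.93%) and at least 8-fold falls for 70 (0.369%), at least 32-fold rises for 268 and falls for 4, and at least 64-fold rises for 184 and falls for 1. In 123 genes the rise was 128-fold or more. In these fold counts, and in the medians, a gene with 0 counts in both libraries of a time is placed at its bound against 3 counts per library.

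The number of falling genes was smaller whichever of the 4 libraries was left out, which leaves a single library at that time. Rising genes were also fewer in those runs. The number of falling genes depended on scaling as well. Leaving out a 30 minute library gave 1814 (replicate 1) or 1607 (replicate 2) lower genes, and leaving out a 0 minute library 1890 (replicate 1) or 1754 (replicate 2). Under TMM 53.9% of the called genes were rising ones and the median log2 fold change lay at -0.02. Upper-quartile factors gave 27.7% and a median of -0.26, and scaling by library totals gave 39.0% and -0.16, so the split between rises and falls is relative to the scaling. The number of genes at least 8-fold higher stayed between 497 and 564 over the alternatives run.

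**Figure D1:**
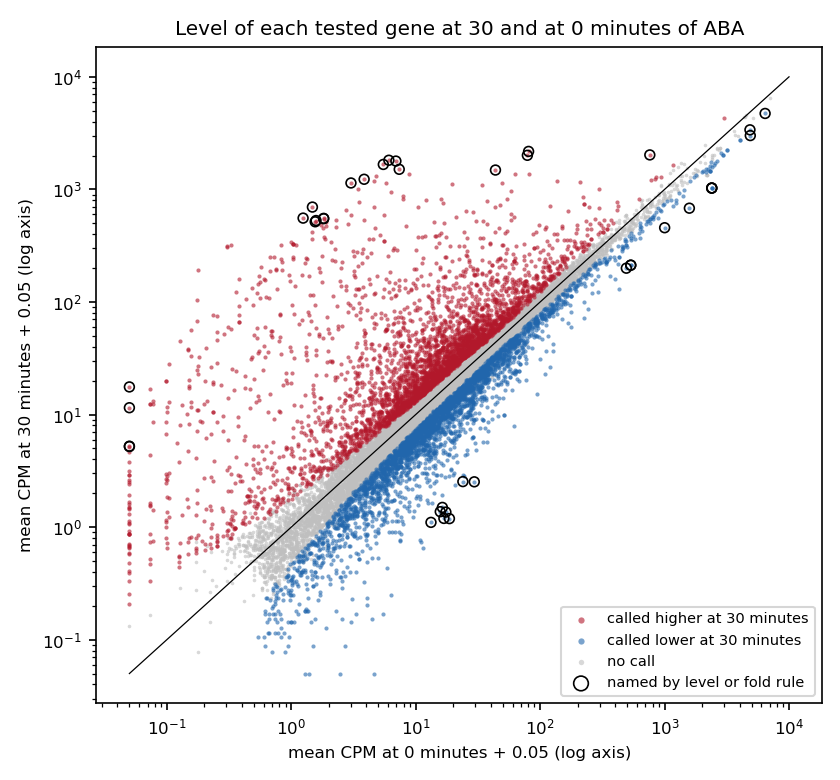
Mean level of each of the 18949 tested genes at 30 minutes (vertical) and at 0 minutes (horizontal), in TMM-scaled CPM with 0.05 added, on log axes. Each dot is a gene, coloured by its call; the line marks equal levels and circles mark genes picked by the rules on fold and level. Rising genes reach far above the line at low starting levels, while no called gene above 100 CPM at 0 minutes lies more than 2.25 log2 units below it.

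The group of 555 genes at least 8-fold higher were high in reads at 30 minutes and low at 0 minutes. Their median level was 74.7 CPM at 30 minutes and 1.67 CPM at 0 minutes, against medians over all tested genes of 14.6 CPM at 30 minutes and 13.5 CPM at 0 minutes. At 30 minutes 243 of them had at least 100 CPM and 19 at least 1000 CPM. At 0 minutes 467 of them were below 10 CPM and 234 below 1 CPM. Taken as a share of all gene counts, the 555 genes held 10.9% ± 0.145 in the 30 minute libraries, against 0.390% ± 0.00398 in the 0 minute libraries (SD, n = 2). This group was chosen on the same libraries, so its levels and shares describe it and do not test it. Its members below 1 CPM at 0 minutes could pass the filter on low counts through their later libraries. Its median percent difference between replicates was 6.97% at 30 minutes; at 0 minutes it was 13.5% among the members with at least 1 CPM. The 60 minute libraries gave a median of 127 CPM for the same genes. Of the 555 IDs, 27 belonged to a set of near-equal neighbours, and 541 genes were at least 8-fold higher when each set was counted once.

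The largest folds among genes with a measurable starting level of at least 1 CPM belonged to 8 IDs, which form 6 separate observations. Pp3c26_470 had 684 and 709 CPM at 30 minutes, against 1.72 and 1.14 CPM at 0 minutes. Its log2 fold change was 8.91 (SE 0.25, adjusted p 2.11e-10 in edgeR's quasi-likelihood test), and it ranked 191 and 181 by reads in the 30 minute libraries, against 16980 and 17546 in the 0 minute libraries. If the rise was steady over the 30 minutes, its level doubled every 3.37 minutes. Pp3c18_7460 had 563 and 549 CPM at 30 minutes, against 1.58 and 0.812 CPM at 0 minutes, a log2 fold change of 8.83 (SE 0.26). Pp3c16_12890 had 1125 and 1156 CPM at 30 minutes, against 3.01 and 2.92 CPM at 0 minutes, a log2 fold change of 8.58 (SE 0.21). Pp3c8_19410 had 1253 and 1207 CPM at 30 minutes, against 3.92 and 3.68 CPM at 0 minutes, a log2 fold change of 8.33 (SE 0.23). In each of these genes the replicates at 30 minutes lay close together and far above both 0 minute libraries. Lack of overlap between the times was a condition for naming them.

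The other members of this group were pairs of near-equal neighbours. Pp3c19_5500 had 522 and 535 CPM at 30 minutes, against 1.82 and 1.25 CPM at 0 minutes, and Pp3c19_5460 differed from it by at most 3% or 3 counts in each library. Pp3c3_5200 had 549 and 556 CPM at 30 minutes, against 1.86 and 1.68 CPM at 0 minutes, and Pp3c3_5270 was its near-equal neighbour. Over all 8 IDs the adjusted p in edgeR's test lay between 1.23e-10 and 2.91e-10, and the time per doubling under a steady rise between 3.37 and 3.63 minutes. Across the alternatives the log2 fold change of Pp3c26_470 ranged from 8.66 to 9.25 and that of Pp3c18_7460 from 8.47 to 9.41; both genes had few reads at 0 minutes (57 and 48 over both libraries).

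Below a starting level of 1 CPM, the highest folds with at least 1 read in the 0 minute libraries belonged to 3 neighbouring IDs, which were picked after their values were seen. Pp3c17_13980 had 203 and 180 CPM at 30 minutes, against 0.0956 and 0.162 CPM at 0 minutes. These levels rest on 3719 and 2341 reads at 30 minutes, against 2 and 3 reads at 0 minutes, a ratio of 1526 with an exact 95% counting interval from 653 to 4701. Pp3c17_14020 had 320 and 314 CPM at 30 minutes, against 0.239 and 0.271 CPM at 0 minutes, a ratio of 1253 with an interval from 681 to 2613. Pp3c17_14041 had 326 and 292 CPM at 30 minutes, against 0.239 and 0.271 CPM at 0 minutes, a ratio of 1229 with an interval from 668 to 2563. The 3 IDs differ too much from each other to form a near-equal set, but shared reads between them cannot be told apart from separate transcription. Pp3c17_14020 was in a near-equal pair with a further neighbour, Pp3c17_14000, so its own level is uncertain. Counting intervals cover the counting error of reads only.

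More widely, 412 of 1181 tested genes below 1 CPM at 0 minutes were called higher. Such genes could pass the filter on low counts through their later libraries, so this class favours rises. At 30 minutes 140 of the 412 had at least 10 CPM, and 37 reached at least 100 CPM. The most read of these at 30 minutes was Pp3c10_19280, also picked after its values were seen, with 355 and 332 CPM at 30 minutes, against 0.956 and 0.920 CPM at 0 minutes (log2 fold change 8.50, SE 0.17, adjusted p 1.23e-10 in edgeR's quasi-likelihood test). Of called genes below 10 CPM at 0 minutes, 158 reached at least 100 CPM at 30 minutes and 10 reached at least 1000 CPM.

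Genes without a single read at 0 minutes reached lower levels. There were 41 such genes among those tested, and all had to pass the filter on low counts through reads at a later time, so the number of calls among them (40) is no result in itself. Their level at 30 minutes ran from 0.159 to 17.5 CPM among the 40, with a median of 1.06 CPM. Pp3c23_8960 had 17.2 and 17.9 CPM at 30 minutes, against 0 counts in both 0 minute libraries, at least 115-fold higher than a floor of 3 counts per library. Pp3c21_2830 had 9.68 and 13.2 CPM at 30 minutes and 0 counts at 0 minutes, at least 74.9-fold higher. Pp3c2_22500 had 5.91 and 4.46 CPM at 30 minutes, at least 33.9-fold higher, and Pp3c10_13280 had 4.38 and 5.91 CPM, at least 33.7-fold higher, each against 0 counts in both 0 minute libraries. The adjusted p of these 4 genes lay between 1.94e-07 and 1.08e-06 in edgeR's test. These values carry the same limit, since such genes could enter the test only through later reads.

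**Figure D2:**
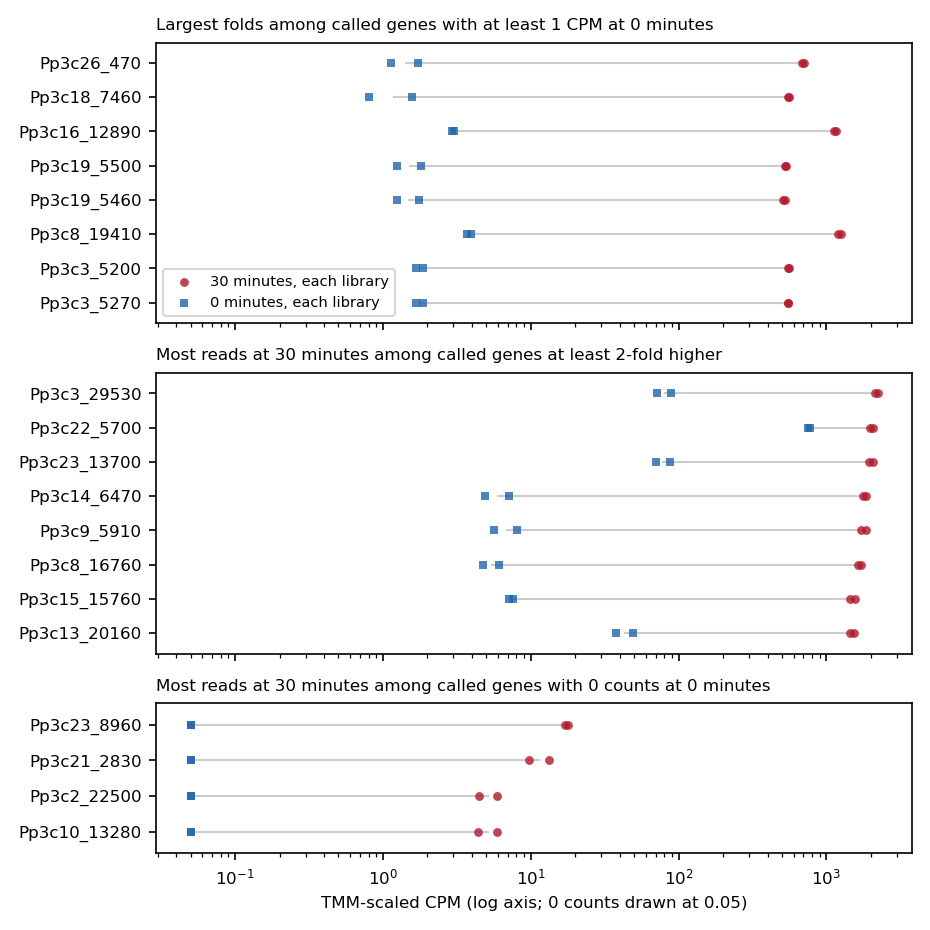
Level in each library of the rising genes picked by rule, in TMM-scaled CPM on a log axis, with circles for the 30 minute libraries and squares for the 0 minute libraries; a grey line joins the means and 0 counts are drawn at 0.05. The upper panel holds the largest folds from at least 1 CPM. The middle panel holds the most read genes at 30 minutes and the lower panel genes with 0 counts at 0 minutes. In every row the times are far apart relative to their replicates, and lack of overlap was a condition of the pick.

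The most read rising genes at 30 minutes were not all steep. The 8 genes with the most reads at 30 minutes, among those at least 2-fold higher, had mean levels between 1486 and 2175 CPM at 30 minutes, against mean levels between 5.44 and 761 CPM at 0 minutes. Pp3c3_29530 led with 2223 and 2127 CPM at 30 minutes, against 71.9 and 89.4 CPM at 0 minutes, a log2 fold change of 4.75 (SE 0.22, adjusted p 1.2e-08 in edgeR's quasi-likelihood test). It gained 69.8 CPM per minute on average, and moved to rank 20 and 23 by reads at 30 minutes, against rank 1902 and 1548 at 0 minutes. Pp3c23_13700 behaved alike in size, with 2069 and 1948 CPM at 30 minutes, against 70.3 and 87.4 CPM at 0 minutes, a log2 fold change of 4.67 (SE 0.19). Lack of overlap between the groups was a condition for naming both genes.

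Pp3c22_5700 came second in reads by another path, since it was already well read. It had 1971 and 2079 CPM at 30 minutes, against 749 and 773 CPM at 0 minutes, a log2 fold change of 1.41 (SE 0.16, adjusted p 2.89e-05 in edgeR's test) and a gain of 42.1 CPM per minute. Pp3c13_20160 had 1536 and 1435 CPM at 30 minutes, against 37.9 and 49.5 CPM at 0 minutes, a log2 fold change of 5.09 (SE 0.21).

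The other 4 combined a steep fold with a high level. Pp3c14_6470 had 1863 and 1769 CPM at 30 minutes, against 4.92 and 7.15 CPM at 0 minutes, a log2 fold change of 8.24 (SE 0.23). Pp3c9_5910 had 1853 and 1716 CPM at 30 minutes, against 5.64 and 8.12 CPM at 0 minutes, a log2 fold change of 8.02 (SE 0.22). Pp3c8_16760 had 1704 and 1629 CPM at 30 minutes, against 6.12 and 4.76 CPM at 0 minutes, a log2 fold change of 8.25 (SE 0.22). These 3 genes ranked between 33 and 46 by reads at 30 minutes, and between 12352 and 14554 at 0 minutes. Pp3c15_15760 had 1564 and 1453 CPM at 30 minutes, against 7.55 and 7.09 CPM at 0 minutes, a log2 fold change of 7.68 (SE 0.19), and ranked 54 in both 30 minute libraries. The adjusted p of these 4 genes lay between 1.24e-10 and 1.99e-10 in edgeR's test. Pp3c3_29530, Pp3c23_13700 and Pp3c14_6470 also had the largest gains in CPM of all called genes.

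Falling genes changed by smaller folds. Among called genes that kept at least 1 CPM at 30 minutes, Pp3c20_15220 had the largest fall, with 1.20 and 1.08 CPM at 30 minutes, against 22.6 and 14.6 CPM at 0 minutes. Its log2 fold change was -4.01 (SE 0.27, adjusted p 3.35e-07 in edgeR's quasi-likelihood test), and the ratio of reads was 16.4-fold lower at 30 minutes with an exact 95% counting interval from 11.7 to 23.6. A steady fall of that size over 30 minutes gives a 2-fold drop every 7.48 minutes. Pp3c3_21440 had 1.37 and 0.922 CPM at 30 minutes, against 16.1 and 17.4 CPM at 0 minutes, a log2 fold change of -3.83 (SE 0.21). Pp3c12_20420 had 1.31 and 1.31 CPM at 30 minutes, against 16.0 and 18.8 CPM at 0 minutes, a log2 fold change of -3.72 (SE 0.20). Lack of overlap between the groups was required of all 3 genes. The 0 minute libraries of Pp3c20_15220 differed more from each other than those of the other genes.

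Next in size were genes that mostly started at similar levels. Pp3c16_3770 had 1.26 and 0.845 CPM at 30 minutes, against 13.4 and 13.0 CPM at 0 minutes (log2 fold change -3.60, SE 0.22). Pp3c22_2440 had 1.26 and 1.38 CPM at 30 minutes, against 14.3 and 17.1 CPM at 0 minutes (log2 fold change -3.57, SE 0.32). Pp3c12_10360 had 1.59 and 1.31 CPM at 30 minutes, against 16.6 and 16.0 CPM at 0 minutes (log2 fold change -3.47, SE 0.19). The groups do not overlap in these genes by the rule that picked them. The 2 with the highest starting levels were Pp3c3_19750, with 3.34 and 1.61 CPM at 30 minutes, against 30.5 and 28.5 CPM at 0 minutes (log2 fold change -3.51, SE 0.23), and Pp3c4_26050, with 2.90 and 2.07 CPM at 30 minutes, against 26.0 and 21.8 CPM at 0 minutes (log2 fold change -3.23, SE 0.22). The fold of Pp3c3_19750 rested in part on 1 library, with log2 fold changes between -4.18 and -3.14 when 1 library was left out, the lowest without replicate 1 at 30 minutes. Over all 8 genes, reads at 30 minutes summed to between 34 and 82 over both libraries, the adjusted p in edgeR's test ran from 4.11e-08 to 4.52e-06, and halving under a steady fall took 7.48 to 9.28 minutes.

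Below 1 CPM at 30 minutes, 3 falling genes had had at least 10 CPM at 0 minutes; below 2 CPM at 30 minutes, there were 18. The 3 were the neighbouring IDs Pp3c5_11930, Pp3c5_11990 and Pp3c5_12030, named after their values were seen, and their counts nearly coincide: 11 and 10, 11 and 11, and 11 and 8 reads at 30 minutes, against 220 and 208, 220 and 207, and 235 and 217 reads at 0 minutes. With totals under 600 counts they were not part of the search for near-equal sets. Pp3c5_12030 had the largest fall of these, a log2 fold change of -4.22 (SE 0.23, adjusted p 4.17e-08 in edgeR's quasi-likelihood test), with an exact 95% counting interval of 12.0-fold to 31.7-fold lower. Only 4 genes were called with 0 counts in both 30 minute libraries.

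Among called genes at least 2-fold lower, the most read fell by little more than that limit, which the pick itself required. At any fold, 40 genes with 1000 CPM or more at 0 minutes were called lower. At least 2-fold falls were called for 1102 genes, of which 440 had at least 10 CPM at 0 minutes, 28 at least 100 CPM and 5 at least 1000 CPM. These 5 were neighbouring IDs. Pp3c26_6990 had 974 and 1083 CPM at 30 minutes, against 2264 and 2534 CPM at 0 minutes, a log2 fold change of -1.22 (SE 0.15, adjusted p 6.07e-05 in edgeR's test). Pp3c26_6890 and Pp3c26_6930 were near-equal to it, each with 973 and 1082 CPM at 30 minutes, against 2258 and 2525 CPM at 0 minutes. Pp3c26_6961 had 635 and 727 CPM at 30 minutes, against 1535 and 1629 CPM at 0 minutes, and Pp3c26_6810 had 444 and 469 CPM at 30 minutes, against 906 and 1096 CPM at 0 minutes. All 5 IDs fell by similar folds, log2 fold changes of -1.22 to -1.13, and whether they share reads was not tested.

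The remaining most read genes at least 2-fold lower lay at lower levels. Pp3s775_50 had 206 and 219 CPM at 30 minutes, against 463 and 607 CPM at 0 minutes (log2 fold change -1.33, SE 0.15), and Pp3s775_10 was its near-equal neighbour. Pp3c22_9200 had 183 and 216 CPM at 30 minutes, against 489 and 496 CPM at 0 minutes (log2 fold change -1.30, SE 0.12, adjusted p 5.94e-06 in edgeR's quasi-likelihood test). Over the 8 most read IDs at least 2-fold lower, a steady fall corresponds to halving every 22.5 to 26.5 minutes, about as long as the interval itself.

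The largest losses in CPM, at any fold, came from 3 IDs among the 10 most read at 0 minutes. Pp3c9_5310 had 2983 and 3032 CPM at 30 minutes, against 4833 and 4936 CPM at 0 minutes (log2 fold change -0.70, SE 0.15, adjusted p 0.00348 in edgeR's quasi-likelihood test), and the level fell by 62.6 CPM per minute on average. Its groups were well apart, but the adjusted p was 0.0751 and 0.0685 without replicate 1 or 2 at 30 minutes. Pp3c22_5610 had 4696 and 4760 CPM at 30 minutes, against 6048 and 6802 CPM at 0 minutes (log2 fold change -0.44, SE 0.16, adjusted p 0.0480). It lost its call when any of the 4 libraries was left out (adjusted p 0.103 to 0.284). Pp3c21_3950 had 3496 and 3270 CPM at 30 minutes, against 5361 and 4346 CPM at 0 minutes (log2 fold change -0.52, SE 0.16, adjusted p 0.0286), and was not called without replicate 1 at 0 minutes or without either 30 minute library (adjusted p 0.154 to 0.244). The most read ID at both times, Pp3c4_17240, had 6262 and 6579 CPM at 30 minutes, against 7309 and 6716 CPM at 0 minutes, and was not called (log2 fold change -0.13, SE 0.17, adjusted p 0.586).

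**Figure D3:**
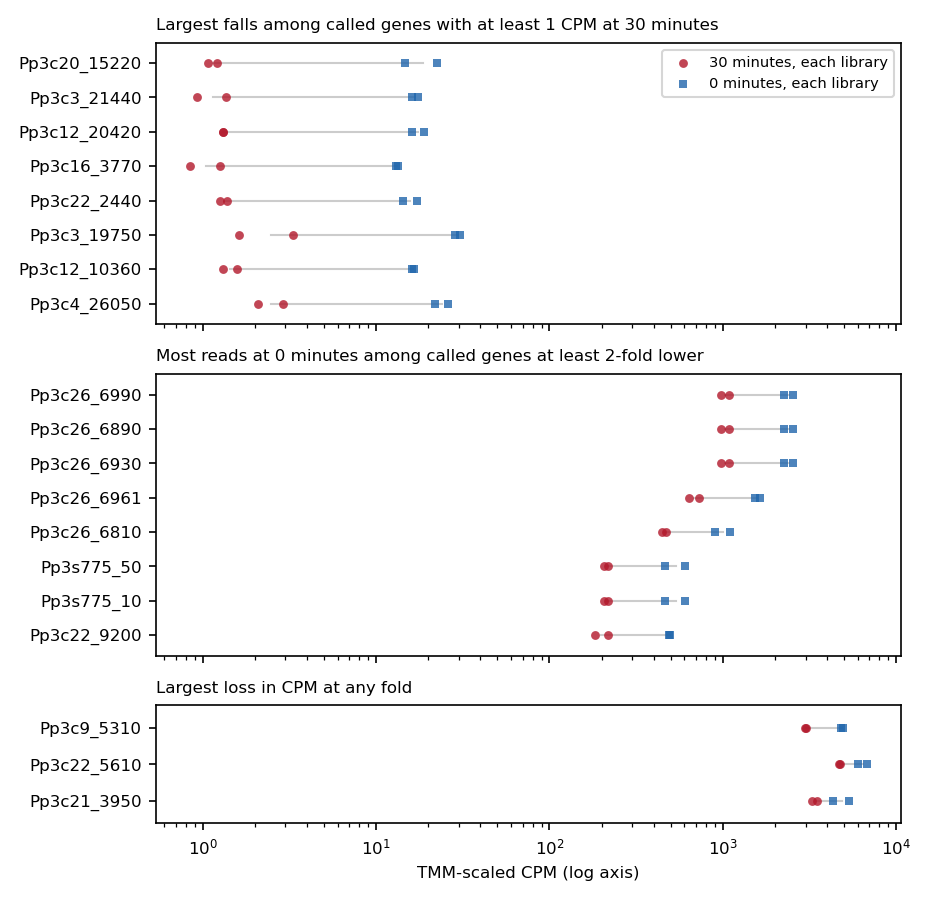
Level in each library of the falling genes picked by rule, in TMM-scaled CPM on a log axis, with circles for the 30 minute libraries and squares for the 0 minute libraries; a grey line joins the means. The upper panel holds the 8 largest falls among genes that kept at least 1 CPM at 30 minutes, which had 13.0 to 30.5 CPM at 0 minutes; the most read fallers, in the middle and lower panels, move by a shorter distance.

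Direction and size of the change were set out by level at 0 minutes. Above 0 and below 1 CPM, 372 of 1140 tested genes (32.6%) were higher and 75 (6.58%) lower, and 215 were at least 8-fold higher. A gene at this level could pass the filter on low counts through its later libraries, so this class favours rises. From 1 to 10 CPM, 1164 of 6455 genes (18.03%) were higher and 1156 (17.9%) lower, with 233 at least 8-fold higher and 38 at least 8-fold lower. From 10 to 100 CPM, 1987 of 9939 genes (19.99%) were higher and 1689 (17.0%) lower, with 87 and 16 at least 8-fold. From 100 to 1000 CPM, 150 of 1268 genes (11.8%) were higher and 221 (17.4%) lower, and a single gene was at least 8-fold higher.

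At 1000 CPM or more, 2 of 106 genes were higher and 40 (37.7%) lower, with a median log2 fold change of -0.34, against -0.02 over all genes tested. Falls also outnumbered rises in this class with DESeq2's median-ratio size factors (36 and 1), upper-quartile factors (85 and 0) and total counts alone (80 and 2), and when near-equal IDs were counted once (33 and 2 of 95). In the class of 10 to 100 CPM the balance turned with the scaling: upper-quartile factors gave 1198 higher and 3746 lower, and total counts alone 1368 and 2308. The 0 minute libraries both set the class and enter each fold, and their part in the pattern was not tested.

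The 2 rising genes of the highest class changed little and are uncertain. Pp3c10_17760 had 4234 and 4308 CPM at 30 minutes, against 2747 and 3305 CPM at 0 minutes (log2 fold change 0.50, SE 0.18, adjusted p 0.0469 in edgeR's quasi-likelihood test). Pp3c1_23900 had 1582 and 1718 CPM at 30 minutes, against 1086 and 1251 CPM at 0 minutes (log2 fold change 0.50, SE 0.16, adjusted p 0.0297). Both were named after their values were seen, neither kept its call when any of the 4 libraries was left out (adjusted p 0.0833 to 0.295 and 0.0737 to 0.223), and neither was called with upper-quartile factors (adjusted p 0.224 and 0.183).

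**Figure D4:**
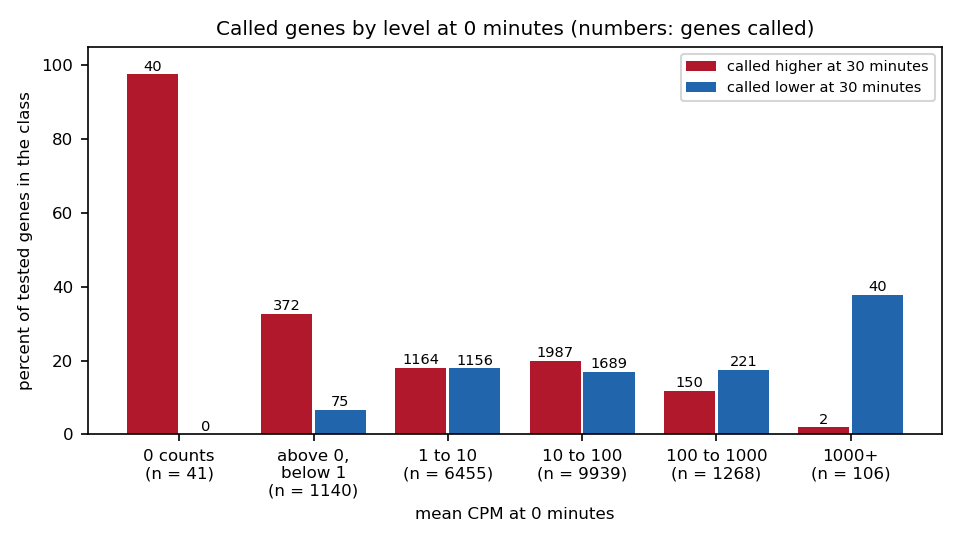
Percent of the tested genes called higher and called lower at 30 minutes, in classes of mean CPM at 0 minutes; numbers above the bars count the genes. The share called lower is 37.7% in the class of 1000 CPM or more, where the share called higher is 1.89%; the class of 0 counts had to rise to be tested.

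Shares of each library's gene counts need no scaling between libraries. Summed over all genes, the increases in share from 0 to 30 minutes came to 19.4 percentage points between the group means, and to between 19.2 and 20.2 points for each pair of single libraries. The same sum was 3.45 points between the 30 minute replicates and 4.73 points between the 0 minute replicates. The shift was broad: the single largest gain held 1.12% of it, the 10 largest 8.68%, the 100 largest 37.8% and the 1000 largest 83.6%, and 185 genes made up 50% of the gain. Of the loss, the single largest held 1.28%, with 9.40% in the 10 largest, 40.3% in the 100 largest and 72.8% in the 1000 largest, and 184 genes made up 50% of the loss. Ranked by change in CPM, the 100 genes with the largest gain made up 8.88% ± 0.124 of all reads in genes at 30 minutes, against 1.56% ± 0.0456 at 0 minutes, and the 100 with the largest loss 14.7% ± 0.0978 at 30 minutes, against 22.4% ± 0.848 at 0 minutes (SD, n = 2). These lists were ranked on the same libraries, and with 2 libraries per time an exact two-sided permutation test cannot go below p = 0.333.

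**Figure D5:**
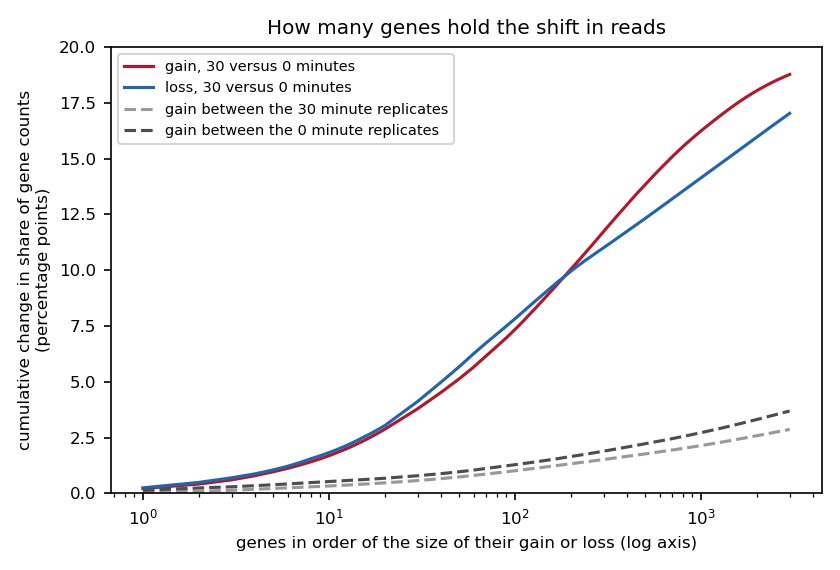
Cumulative change in share of gene counts, in percentage points, over genes in order of their gain or loss (log axis). Solid lines compare the group means at 30 and 0 minutes and dashed lines the replicates of each time; the solid lines pass 5 points within the 100 largest changes, while the dashed lines stay below 5 points throughout.

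The list of the 100 most read IDs changed by 24 members. Replicates shared 94 of their 100 most read IDs at 30 minutes and 97 at 0 minutes, and the 2 times shared 76 by their mean shares. All 24 IDs that entered were called higher, and 17 of them came from below rank 1000 and 11 from below rank 5000. The furthest climb was that of Pp3c16_12890, which ranked 96 by mean share at 30 minutes and 15914 at 0 minutes. The 24 IDs that left moved a short way, to a median rank of 118 and at furthest 196, and 11 of them were called lower. Among the 76 that stayed, 27 were called lower, 2 higher and 47 not at all. The 100 most read IDs together drew 19.9% and 19.6% of the reads at 30 minutes, against 25.0% and 26.3% at 0 minutes; 13 of them at 30 minutes and 17 at 0 minutes belonged to near-equal sets.

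Rising genes were called under each ID prefix. Over the 27 prefixes Pp3c1 to Pp3c27, with 256 to 1257 tested genes each, 16.1% to 22.3% of genes were called higher and 13.4% to 21.1% lower, near the backgrounds of 19.6% and 16.8%. At least 8-fold rises made up 1.49% to 4.64% of these prefixes. Under the prefix Pp3s, 6 of 79 tested genes (7.59%) were higher and 15 (19%) lower. Of the 32926 IDs, 13977 were not tested (too few reads for the filter). In the 4 libraries compared, 9714 of these had no read at all, and the other 4263 had at most 44 reads in total.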

How the data were processed

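The authors deposited raw read counts per gene, 1 table per library. Per the submitters' processing notes, the tools were TopHat, HTSeq, cutadapt and DESeq2; the role and version of each, and the build, annotation and strandedness used in counting: not given in the sources used here. RNA was Trizol-extracted and made into stranded mRNA libraries, per the labels' protocols. The 5 summary rows were left out; reads in no gene were 1.66% to 2.14% of each library, and the other summary rows were 0.

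Genes were kept by filterByExpr (minimum count 10, minimum total 15), which left 18949 genes holding 99.94% to 99.97% of gene counts. The 3 times were fitted to all 6 libraries with TMM and edgeR's quasi-likelihood test (edgeR 4.0.16, R 4.3.3; 3 residual degrees of freedom; limma 3.58.1 and DESeq2 1.42.0 as alternatives). The edgeR fit, but not the alternatives, was tested on simulated counts. SE is the log2 fold change divided by the square root of F. Replicates are called biological in the design text; nothing says that they came from separate cultures, so p-values may measure technical spread.

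Named genes were those called, without overlap between times, with the 8 highest folds from 1 CPM, the 4 highest levels from 0 counts, the 8 most read at 30 minutes and at least 2-fold higher, the 8 lowest folds down to 1 CPM, the 8 most read at 0 minutes and at least 2-fold lower, and the 3 largest gains and losses. Genes, classes and tests were chosen with earlier results of these data known; near-equal sets were sought after seeing the data.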

Additional observations from a re-analysis of the deposited data

Results flagged for a closer look

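The 60 against 30 minute test of the same edgeR fit was read for the 49 named IDs. Of these, 30 had another level at 60 than at 30 minutes (23 higher and 7 lower at 60 minutes). These numbers count each member of a near-equal set, and 44 named IDs remain when each set is counted once. That test called 36% of all tested genes. The named genes were chosen for extreme values at 30 minutes, and these libraries enter this test too.

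Among the steep risers, the log2 fold change of 60 over 30 minutes was 0.85 for Pp3c26_470, 1.16 for Pp3c16_12890 and 0.78 for Pp3c8_19410. Pp3c18_7460 was not called between these times (log2 fold change 0.19, adjusted p 0.403 in edgeR's quasi-likelihood test). The log2 fold change was 0.93 and 0.94 for the near-equal Pp3c19_5500 and Pp3c19_5460, and 1.58 for both Pp3c3_5200 and Pp3c3_5270. Genes with 0 counts at 0 minutes gave 1.69 for Pp3c23_8960, 1.60 for Pp3c21_2830 and 2.05 for Pp3c10_13280, but -1.34 for Pp3c2_22500, which was lower at 60 minutes. Most of the most read risers went higher still, by 1.67 for Pp3c3_29530, 1.03 for Pp3c22_5700, 1.26 for Pp3c23_13700 and 1.24 for Pp3c14_6470. The further rise was 0.74 for Pp3c9_5910, 1.46 for Pp3c8_16760 and 0.94 for Pp3c15_15760. Pp3c13_20160, also among the most read risers, was not called (log2 fold change 0.35, adjusted p 0.129 in edgeR's quasi-likelihood test). Pp3c10_17760 and Pp3c1_23900 were both higher at 60 minutes, by 0.75.

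In contrast, the 3 neighbouring IDs that rose most steeply from a few reads were lower at 60 than at 30 minutes, by -0.74 for Pp3c17_13980, -1.05 for Pp3c17_14020 and -0.70 for Pp3c17_14041, and so was Pp3c10_19280, by -0.40. Of the steep fallers, 4 were higher at 60 than at 30 minutes: Pp3c16_3770 by 2.27, Pp3c12_10360 by 2.12, Pp3c22_2440 by 1.74 and Pp3c4_26050 by 0.79. The 60 minute replicates of Pp3c22_2440 lay apart, with 86 and 37 reads. Pp3c20_15220, Pp3c3_21440 and Pp3c3_19750 were not called between these times (adjusted p 0.814, 0.0954 and 0.316 in edgeR's quasi-likelihood test). Pp3c12_20420 went lower by -2.82, on only 3 and 2 reads at 60 minutes, against 24 and 17 reads at 30 minutes. Pp3c22_9200 went lower by -0.49.

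Reads in no annotated gene, which no comparison uses, were 1.987% and 2.036% of the 30 minute libraries, against 1.671% and 1.662% of the 0 minute libraries.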

How the results depend on the processing

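No named gene changed direction under any alternative run. With upper-quartile factors 6668 genes were lower and 1841 at least 2-fold lower; the 100 largest gains then held 8.19% of gene counts at 30 minutes and the 100 largest losses 24.5% at 0 minutes. Total counts alone gave 8.55% and 24.3%. Without the expression filter the largest gains held 9.09%. With the stricter filter (2 CPM in 2 libraries) 43 genes were at least 8-fold lower, among 17389 tested. Counting near-equal IDs once, chosen after seeing the data, put 20.4% in the largest losses. Leaving out 1 of the 6 libraries gave 1607 to 4344 genes lower, 8.68% to 9.68% in the largest gains and 21.2% to 23.8% in the largest losses. Each other count of genes stayed within 1.5 times its value under every alternative run; the cause of these shifts was not tested.

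Replicate numbers are shared between times, but the labels do not say that they pair cultures. The differences between replicates 1 and 2 correlated across genes with r = -0.05 between 0 and 30 minutes, 0.01 between 0 and 60 and 0.21 between 30 and 60. With the replicate block 4011 genes were higher and 3578 lower, 1780 and 1117 at least 2-fold, 555 and 71 at least 8-fold, and no call of a named gene changed. Pp3c22_5610 and Pp3c10_17760 were not called with DESeq2's median-ratio size factors (adjusted p 0.0571 and 0.0541). With limma-voom the fitted folds of the 4 genes with 0 counts at 0 minutes shrank by up to 1.77 on the log2 scale, which is why only bounds are given for them. Fitted without the 60 minute libraries, 4743 genes were higher and 4349 lower. The lower level of steep changes rests on few reads: 34 to 82 over both 30 minute libraries in the 8 steepest fallers that kept at least 1 CPM, and 5 to 10 over both 0 minute libraries in the 3 steepest Pp3c17 risers.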
